A study of Mus musculus with 12 samples.

Results

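The primary cilium is a microtubule-based sensory process that projects from the apical surface of neuroepithelial cells. Trains of intraflagellar transport (IFT) proteins carry cargo along it. Kinesin-II drives them to the tip with the IFT-B complex, and dynein-2 brings them back with the IFT-A complex. The BBSome, a coat of Bardet-Biedl syndrome proteins, moves membrane proteins in and out, and the transition zone at the base gates what enters. In the mouse neural tube, Hedgehog signals are read through this organelle, and mutants in many of its genes have patterning or closure defects.

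Genes of ciliary transport and of the transition zone were taken by symbol from the platform annotation: every Ift or Bbs gene with a number, and a set of named motors, transition zone and basal body genes. This gave 37 genes of the 18194 measured, each represented by the brightest of its probe sets that name 1 gene. Of the members, 11 belong to IFT-B, 3 to IFT-A, 6 are motors, 8 are Bbs genes, 8 are transition zone genes and 1, Ofd1, is a centriole gene. Arl13b and Rpgrip1l, which the choice also named, were not analysed here. All 37 had a mean level above 1.43 on the log2 scale, a background set at the 95th percentile of 38 olfactory receptor genes' means. Tmem67 alone had a stage mean under it, 1.41 at GD9.0.

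The samples were micro-dissected neural tubes of ICR (CD-1) mouse embryos, an outbred stock, at gestation days 8.5, 9.0 and 9.5 (GD8.5, GD9.0 and GD9.5), with 4 labelled biological replicates per stage and total RNA hybridised to Affymetrix mouse arrays. No genotype or treatment separates the stages. Of the 12 arrays, 10 hold log2 values whose medians lie between 1.75 and 1.82. The remaining arrays, GD8.5 replicates 1 and 2, hold linear values (medians 92.2 and 98.3) and did not enter the comparisons. These used 2 arrays of GD8.5, 4 of GD9.0 and 4 of GD9.5. The labels do not say whether a replicate is 1 embryo, a litter or a pool, and p-values measure the spread between these arrays.

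The dissected tissue carried neural markers at every stage, and marker levels of several other tissues changed. The mean log2 level of 12 neural progenitor markers (Sox1, Sox2, Pax6 and others) was 5.07 ± 0.01 on the GD8.5 arrays (SD, n = 2), 5.95 ± 0.01 on the GD9.0 arrays (n = 4) and 6.80 ± 0.03 on the GD9.5 arrays (n = 4), and 0 of 12 lay at or under 1.43. That of 12 neuron markers ranged from 2.71 to 2.73, from 3.50 to 3.57 and from 5.10 to 5.23 at these stages, with Dcx, Nhlh1, Nhlh2 and Neurod1 at or under 1.43 at GD8.5. That of 12 cardiac muscle markers was 5.77 ± 0.06, 2.91 ± 0.03 and 1.48 ± 0.05, with 6 of 12 at or under 1.43 at GD9.5. That of 12 endoderm and yolk sac markers was 5.84 ± 0.01, 3.20 ± 0.03 and 1.60 ± 0.05, with 4 of 12 there at GD9.5. Levels of 8 erythroid markers ranged from 4.94 to 5.11, from 6.03 to 6.14 and from 6.68 to 6.83, and those of 10 surface ectoderm markers averaged 4.97, 4.45 and 3.91. The averages of 9 endothelium markers (3.22, 3.21 and 3.14) and of 10 mesenchyme markers (4.49, 4.39 and 4.45) moved little. Over the day 2 endothelium markers were called higher and 3 lower, and 3 mesenchyme markers higher and 5 lower. For RNA quality, actin control probes at the 3' end exceeded those at the 5' end by 0.71 ± 0.02 on GD8.5 arrays, 0.56 ± 0.03 on GD9.0 arrays and 0.93 ± 0.03 on GD9.5 arrays (log2, SD). The same difference for Gapdh control probes was small, at 0.039 ± 0.007, -0.001 ± 0.013 and 0.049 ± 0.028. The level of the 18S control probe sets was 9.82 ± 0.01, 8.81 ± 0.18 and 10.28 ± 0.09 at these stages, lowest at GD9.0. These shifts run beside every stage comparison of the ciliary genes, and their part in the results was not tested. In dissected tissue, fewer cells of a type and less RNA per cell cannot be told apart.

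Across the whole day, ciliary genes moved up more often than down, and by small amounts. Of 37 members 15 rose, 1 fell and 21 did not pass when GD9.5 was set against GD8.5, at a limma adjusted p under 0.05 over all genes. That is 40.5% higher, where 15.5% of all genes were called higher and 13.1% lower, 28.6% in all. Of the 12968 genes with a mean level above the background 21.4% were higher and 16.6% lower. The largest change, that of Bbs7, was 1.65-fold. The median log2 change of the members was 0.19, against -0.02 over all genes. The arrays of the 2 stages did not overlap, with GD9.5 higher, in 19 members, or lower, in 1, which held for 23.2% and 22.7% of all genes.

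**Figure D1:**
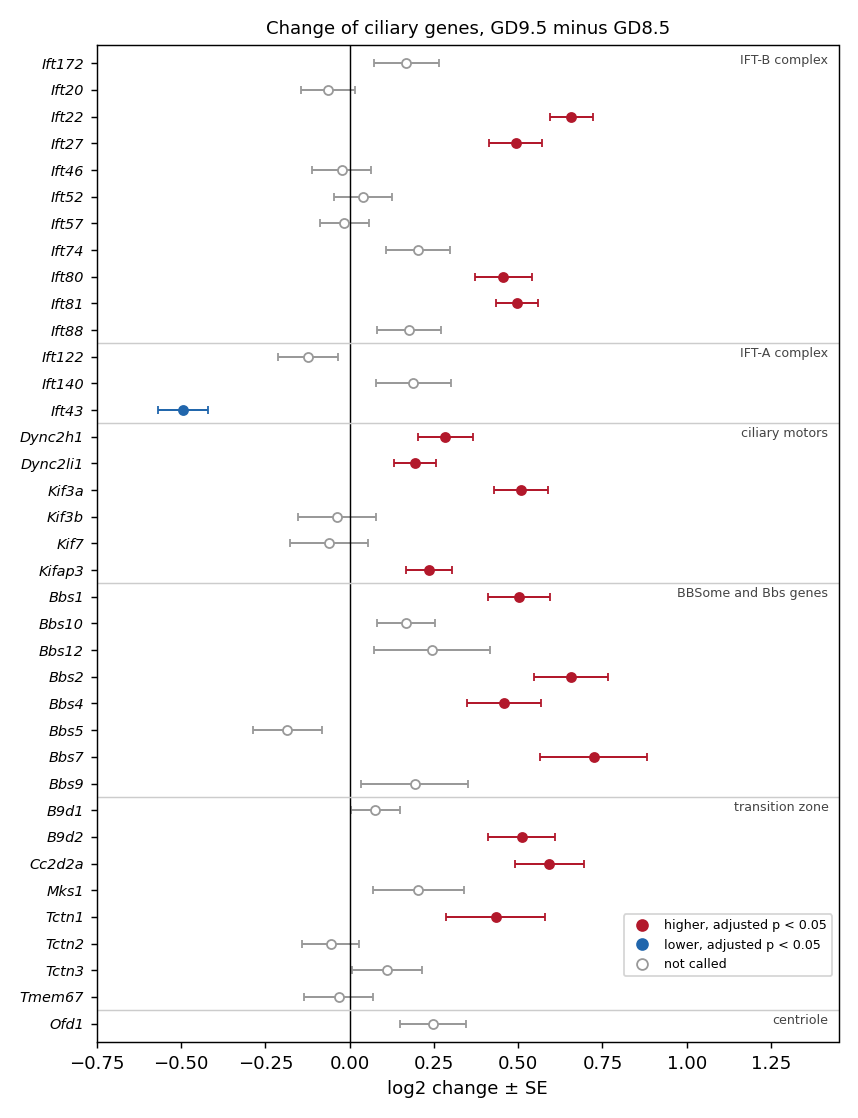
Log2 change of the 37 ciliary genes, GD9.5 minus GD8.5 (points, with SE from the fit over all genes, n = 4 against 2), grouped by complex. Filled red points mark the 15 genes that rose and the filled blue point Ift43, the 1 that fell, and open points mark the 21 that were not called.

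Over the first interval, GD9.0 against GD8.5, 8 of 37 members rose and 0 fell, or 21.6% higher, where 6.78% of all genes were called higher and 6.74% lower, or 9.37% and 8.68% of those above the background. An unadjusted limma p under 0.05 was found for 15 of 37 members, and for 4586 of all 18194 genes. The 8 called were Ift22, Ift74, Ift80, Ift81, Dync2h1, Kif3a, Bbs2 and Cc2d2a. Leaving out GD8.5 replicate 3 or 4 left 1 array at that stage and lowered the number called. The share of all genes called in those fits is not given here, so lower precision and a weaker result for the members cannot be told apart. Over the second interval, GD9.5 against GD9.0, 5 rose (Ift22, Ift27, Kifap3, Bbs1 and B9d2) and 2 fell (Ift43 and Tctn2). That is 13.5% higher and 5.41% lower, beside 14.1% and 10.3% of all genes, and 19.2% and 13.8% of those above the background, so the share that rose was close to that over all genes. In a fit of all 12 arrays, put on log2 and quantile normalized together, the second interval had 2 calls, Ift22 and Ift43. Ift22 was the 1 member called higher in both intervals, as were 3.12% of all genes. The 2 intervals share the GD9.0 arrays.

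**Figure D2:**
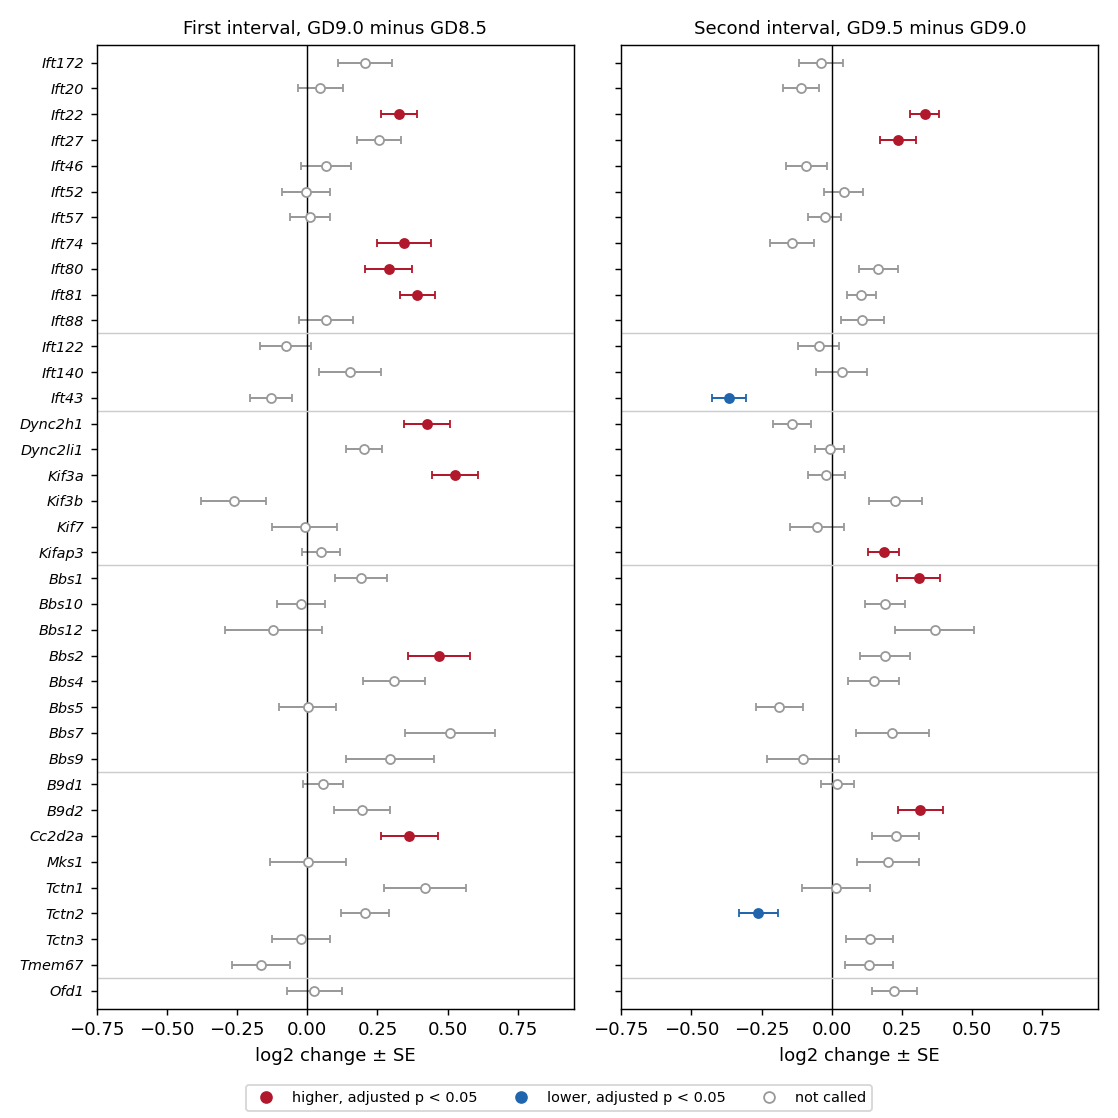
Log2 change of the 37 ciliary genes in the first interval (left, GD9.0 minus GD8.5, n = 4 against 2) and in the second (right, GD9.5 minus GD9.0, n = 4 against 4), with SE. The left panel has 8 filled red points and no blue one, and the right panel has 5 red points and 2 blue points, Ift43 and Tctn2.

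The 2 linear GD8.5 arrays, which these calls did not use, were also set against the later arrays. The later arrays are the same ones that gave the calls, so only the GD8.5 side is new. The processing of the linear arrays was not stated, so stage and processing cannot be told apart here. After log2 and quantile normalization of all 12 arrays, the mean of the GD9.5 arrays lay above that of the 2 linear arrays for 15 of the 15 members that rose over the day, and below it for Ift43. All GD9.5 arrays lay beyond both linear arrays for 13 of the 15, all but Bbs4 and Bbs7, and for Ift43. Among all 2820 genes called higher over the day these shares were 92.6% and 76.0%. For the first interval the GD9.0 mean lay above the linear mean for 8 of the 8 members that rose. All GD9.0 arrays lay beyond both linear arrays for 6 of the 8, all but Ift22 and Ift74. Among the 1233 genes called higher in that interval the shares were 90.8% and 73.2%.

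Promoter sequences are shown here because members that moved together could share letters, and because RFX factors, which drive ciliary genes in animals from worms to mice, bind the X-box. The X-box was searched as GTTNCC, a gap of 0 to 3 bases and GGNAAC. These 2 arms are reverse complements of each other, so the search covers both strands, and each full match also holds 2 single arms. RefSeq windows on GRCm38.p6, from 250 bases before to 50 after the annotated start, were found for 32 of 37 members. The full letters were in 5 of these 32, or 15.6%, and in 0.936% of 27025 genes with a window, 0.886% of 17491 protein-coding genes and 1.07% of 14453 genes tested on the arrays. A single arm was in 27 of 32 members, or 84.4%, and in 48.8% of all genes. In the lists of other pathway genes counted below, its share ran from 35.7% (Hedgehog signalling) to 90% (cilium disassembly), with 84.2% for motile cilium genes. The share with the full letters ran there from 0%, as for motile cilium genes, to 14.3% (BBS partners). The full letters were in 2 of 12 members that rose over the day, Bbs7 and Tctn1, and in 3 of 20 that did not. A match is a description of the sequence and not a measured site. The 5 matches are given with up to 8 bases on each side, the match in capitals:
Bbs7: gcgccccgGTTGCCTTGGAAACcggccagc
Tctn1: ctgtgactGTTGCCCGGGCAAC
Mks1: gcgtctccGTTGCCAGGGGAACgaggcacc
Ift57: gccctgcgGTTGCCTGGTAACggtgggga
Tctn3: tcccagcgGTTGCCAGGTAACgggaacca

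The Bbs7 stretch is at chr3:36613489-36613518 on the minus strand, 121 bases before the start at its first capital. The Mks1 stretch, chr11:87853183-87853212 on the plus strand, has its match 24 bases before the start. That of Ift57, chr16:49699226-49699254 on the plus strand, begins 60 bases before the start, and that of Tctn3, chr19:40612351-40612379 on the minus strand, 140 bases before it. In Tctn1, chr5:122264411-122264432 on the minus strand, the match begins 36 bases after the start, inside the transcript. The gap was 2 bases in Bbs7, Tctn1 and Mks1 and 1 base in Ift57 and Tctn3. All 5 begin with the single arm GTTGCC.

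Upstream sequences of 4 members that rose over the day are shown to contrast their single arms, with every GTTNCC or GGNAAC in capitals: Bbs7 with a full match, Ift22 with 3 separate single arms, Kif3a with 1 and Bbs2 with none. Each is the 250 bases before the start, 5′ to 3′ on the gene's strand.
Bbs7: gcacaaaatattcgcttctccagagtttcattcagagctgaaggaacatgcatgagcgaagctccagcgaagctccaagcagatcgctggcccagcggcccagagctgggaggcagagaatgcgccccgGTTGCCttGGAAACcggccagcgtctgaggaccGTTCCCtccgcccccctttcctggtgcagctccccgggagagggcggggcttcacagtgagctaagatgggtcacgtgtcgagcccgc
Ift22: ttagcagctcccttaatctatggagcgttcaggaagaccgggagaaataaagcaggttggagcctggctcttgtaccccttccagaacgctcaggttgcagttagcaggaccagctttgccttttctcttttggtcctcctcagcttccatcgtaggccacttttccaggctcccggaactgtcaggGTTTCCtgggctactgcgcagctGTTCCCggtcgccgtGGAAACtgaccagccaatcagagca
Kif3a: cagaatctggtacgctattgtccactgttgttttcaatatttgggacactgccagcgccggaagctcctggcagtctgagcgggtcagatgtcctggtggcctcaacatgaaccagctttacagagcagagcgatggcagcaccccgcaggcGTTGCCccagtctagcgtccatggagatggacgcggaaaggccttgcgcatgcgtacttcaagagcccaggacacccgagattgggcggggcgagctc
Bbs2: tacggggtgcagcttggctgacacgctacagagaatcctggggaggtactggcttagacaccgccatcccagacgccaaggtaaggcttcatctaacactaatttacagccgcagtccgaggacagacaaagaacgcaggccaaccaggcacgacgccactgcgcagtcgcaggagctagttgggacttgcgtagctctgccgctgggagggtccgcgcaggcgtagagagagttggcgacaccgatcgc

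These stretches lie at chr3:36613390-36613639 (minus strand), chr5:136907900-136908149 (plus strand), chr11:53567119-53567368 (plus strand) and chr8:94098510-94098759 (minus strand). Of the 32 members with a window, Kif7, Bbs12, Bbs2, Bbs9 and Ofd1 held no single arm in it.

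**Figure D3:**
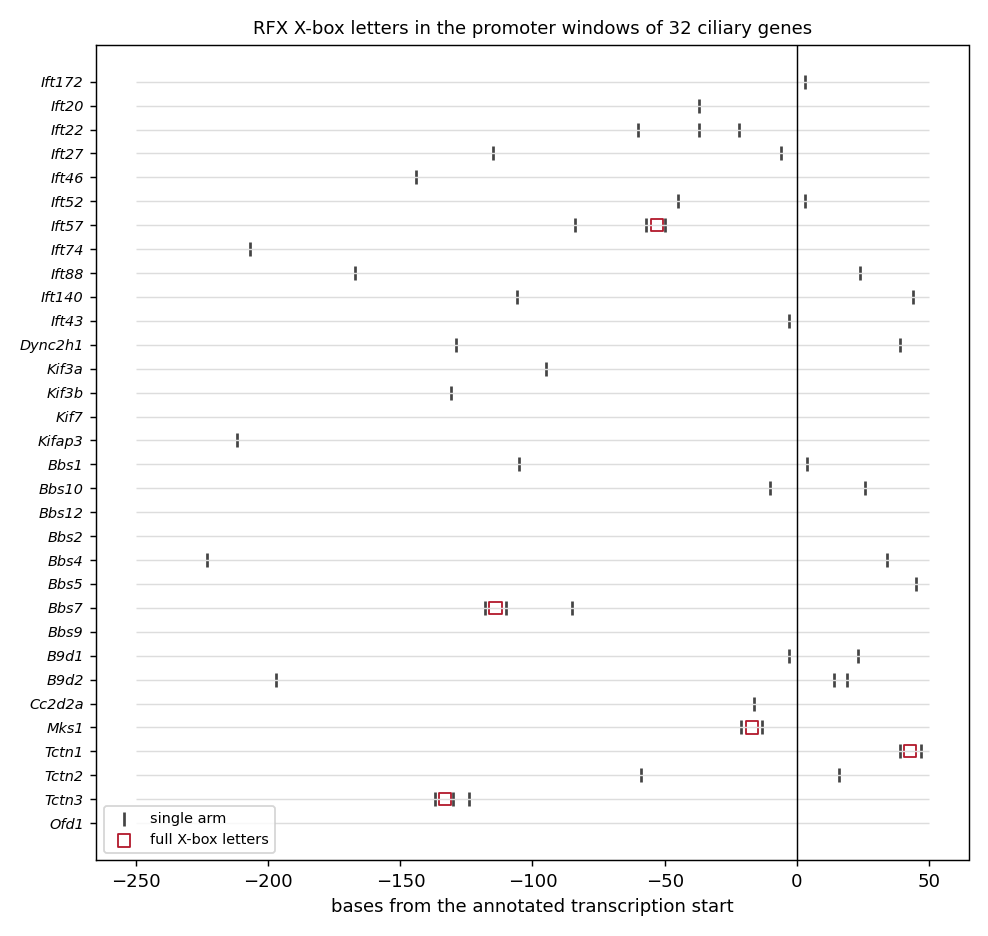
Positions of X-box single arms (ticks) and of the full X-box letters (red squares) in the promoter windows of 32 ciliary genes, as bases from the annotated transcription start, with sites of all windows of a gene on 1 line. Bbs7, Ift57, Mks1, Tctn1 and Tctn3 carry a square, and Kif7, Bbs12, Bbs2, Bbs9 and Ofd1 carry no mark.

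IFT-B carries anterograde trains and, with them, tubulin. Over the day 4 of its 11 genes rose, 0 fell and 7 did not pass, with a median log2 change of 0.18. That is 36.4% higher, beside 15.5% of all genes and 21.4% of those above the background. Ift22, a small GTPase-like subunit, had log2 levels of 4.74 and 4.74 at GD8.5, 5.04, 5.11, 5.02 and 5.10 at GD9.0, and 5.46, 5.34, 5.33 and 5.46 at GD9.5. No 2 stages overlapped, and each later stage was higher. Its change was 0.66 ± 0.06 (SE) over the day, 0.33 ± 0.06 in the first interval and 0.33 ± 0.05 in the second (limma adjusted p = 1.5e-05, 0.0056 and 0.00081). The first of these intervals lost its call without GD8.5 replicate 3 (0.32), without GD8.5 replicate 4 (0.33) and with 12 arrays (0.18).

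Ift27, another small GTPase of the train, which BBSome exit in mice depends on, had levels of 5.59 and 5.49 at GD8.5, 5.85, 5.70, 5.76 and 5.87 at GD9.0, and 5.97, 6.08, 6.13 and 5.94 at GD9.5. All GD9.5 arrays lay above all GD9.0 and GD8.5 arrays. It rose by 0.49 ± 0.08 over the day (adjusted p = 0.00058) and by 0.24 ± 0.06 in the second interval. The interval call was lost without GD9.0 replicate 2 (0.20), without GD9.5 replicate 2 (0.22), without GD9.5 replicate 3 (0.20), without probe sets shared between transcripts (0.33) and with 12 arrays (0.21). The probe set used for Ift27 is one that can bind other transcripts. Of its other probe sets 1 was also called higher over the day (0.60) and 1 was not (0.20).

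Ift81 and Ift74 form the tubulin-binding part of IFT-B. Ift81 had levels of 5.78 and 5.84 at GD8.5, 6.18, 6.25, 6.21 and 6.17 at GD9.0, and 6.35, 6.37, 6.23 and 6.28 at GD9.5. Its GD8.5 arrays stood below all later arrays, while GD9.0 and GD9.5 overlapped. It rose by 0.39 ± 0.06 in the first interval (adjusted p = 0.0014) and by 0.50 ± 0.06 over the day (0.00011), and both calls were kept in 19 of 19 alternatives. Ift74 had levels of 6.61 and 6.41 at GD8.5, 6.77, 6.73, 7.02 and 6.90 at GD9.0, and 6.72, 6.58, 6.79 and 6.76 at GD9.5, with GD9.0 above GD8.5 and GD9.5 overlapping both. It rose in the first interval (0.34 ± 0.10, adjusted p = 0.036) and stood at 0.20 over the day, which was not called. The interval call of Ift74 was lost without GD8.5 replicate 3 (0.44), GD8.5 replicate 4 (0.25), GD9.0 replicate 3 (0.29), GD9.0 replicate 4 (0.33) or GD9.5 replicate 1 (0.34), and with 12 arrays (0.19).

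Ift80, whose loss in mice disturbs Hedgehog signalling and bone, had levels of 5.25 and 5.12 at GD8.5, 5.46, 5.44, 5.52 and 5.47 at GD9.0, and 5.72, 5.57, 5.48 and 5.78 at GD9.5. The GD8.5 arrays were below all others. A second probe set, with a mean level of 4.40, stood at 0.29 over the day and 0.32 in the first interval, neither called. Through the brightest probe set the rise of Ift80 over the day was 0.46 ± 0.08 (adjusted p = 0.0018), kept in 19 of 19 alternatives. Its rise in the first interval (0.29 ± 0.08, adjusted p = 0.045) lost its call in 10 of 19, which were median centring (0.30), the replicate block (0.30), and leaving out either GD8.5 array (0.36 without replicate 3 and 0.22 without replicate 4), any 1 GD9.0 array (from 0.27 to 0.30) or GD9.5 replicate 1 or 2 (0.29 each).

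The other 6 IFT-B genes were not called in any comparison and stood between -0.06 and 0.18 over the day. Ift88, whose loss removes cilia in mice, was at 3.95 and 4.12 at GD8.5, 4.16, 4.12, 4.14 and 3.99 at GD9.0, and 4.32, 4.31, 4.02 and 4.18 at GD9.5, and the stages overlapped. Ift172, another subunit needed for cilia in mice, was at 0.17 over the day. Ift20, which also sits at the Golgi, was at -0.06, and Ift46 and Ift52, of the core of the complex, at -0.02 and 0.04. Ift57, which bears the full X-box letters shown above, was at -0.02.

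IFT-A returns trains to the base. Of its 3 genes 0 rose, 1 fell and 2 did not pass over the day. Of all genes 13.1% were called lower, and 16.6% of those above the background. Ift43, which binds Ift121 in the complex, was the 1 member of all 37 that fell over the day. It had levels of 6.16 and 6.10 at GD8.5, 6.01, 5.92, 6.12 and 5.96 at GD9.0, and 5.68, 5.57, 5.58 and 5.73 at GD9.5. The GD9.5 arrays lay below all the others, and GD8.5 and GD9.0 overlapped. The change was -0.49 ± 0.07 over the day and -0.36 ± 0.06 in the second interval (limma adjusted p = 0.00042 and 0.0011), both kept in 19 of 19 alternatives. Ift122 and Ift140, both core subunits, stood at -0.12 and 0.19 over the day.

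Of 6 motor genes 4 rose over the day, 0 fell and 2 did not pass, and in the first interval 2, Kif3a and Dync2h1, rose. The shares called higher over all genes were 15.5% over the day and 6.78% in the first interval (21.4% and 9.37% above the background). Kif3a, a motor subunit of kinesin-II, had levels of 4.66 and 4.79 at GD8.5, 5.32, 5.12, 5.23 and 5.33 at GD9.0, and 5.34, 5.24, 5.19 and 5.16 at GD9.5. It stepped up between GD8.5 and GD9.0 and the last 2 stages overlapped. The rise was 0.53 ± 0.08 in the first interval and 0.51 ± 0.08 over the day (adjusted p = 0.0011 and 0.0006), and the second interval stood at -0.02. All 4 probe sets of Kif3a had a positive change over the day, and 3 of them were called. Dync2h1, the heavy chain of dynein-2, had 4.91 and 4.70 at GD8.5, 5.17, 5.18, 5.21 and 5.37 at GD9.0, and 5.09, 5.12, 5.01 and 5.14 at GD9.5. All later arrays lay above GD8.5, and GD9.0 lay above GD9.5. It rose by 0.43 ± 0.08 in the first interval (adjusted p = 0.0048) and by 0.28 ± 0.08 over the day (0.023). Without GD8.5 replicate 4 both calls were lost (0.32 and 0.18), and that over the day also without GD9.5 replicate 4 (0.27), with quantile normalization repeated (0.21) and with the replicate block (0.31).

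The difference between the intervals, the second minus the first, was called for Kif3a (-0.55 ± 0.12), Dync2h1 (-0.57 ± 0.12) and Tctn2 (-0.47 ± 0.13), with adjusted p = 0.015, 0.014 and 0.041 by limma. No member had a positive difference that was called, where 6.97% of all genes were called with a positive and 4.67% with a negative one (9.44% and 6.41% of those above the background). In the median member it was -0.12, against 0.003 over all genes. The Kif3a call was lost without GD8.5 replicate 3 (-0.48) or GD9.0 replicate 4 (-0.49), and the Dync2h1 call without GD8.5 replicate 4 (-0.46). The Tctn2 call was lost in 11 of 19 alternatives, among them 8 of the 10 that leave out 1 array, and its value was -0.10 with 12 arrays (adjusted p = 0.89).

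Dync2li1, the light intermediate chain of dynein-2, had levels of 5.53 and 5.51 at GD8.5, 5.71, 5.68, 5.76 and 5.75 at GD9.0, and 5.71, 5.69, 5.64 and 5.81 at GD9.5, with GD8.5 below the rest. Its rise over the day (0.19 ± 0.06, adjusted p = 0.037) was lost without GD8.5 replicate 3 (0.20), GD8.5 replicate 4 (0.19), or GD9.5 replicate 1 (0.20), 2 (0.20) or 4 (0.16), and with quantile normalization repeated (0.15) or the replicate block (0.21). Kifap3, the cargo-binding subunit of kinesin-II, had 6.82 and 6.78 at GD8.5, 6.83, 6.76, 6.95 and 6.85 at GD9.0, and 7.03, 6.98, 7.02 and 7.11 at GD9.5. Here GD9.5 was the stage that stood apart, above all other arrays. It rose by 0.23 ± 0.07 over the day and by 0.19 ± 0.06 in the second interval (adjusted p = 0.023 and 0.03). Its second probe set stood at 0.03 over the day, and with the mean of both the changes were 0.13 and 0.08, not called. The day's call for Kifap3 was also lost without GD8.5 replicate 3 (0.25), GD8.5 replicate 4 (0.22) or GD9.5 replicate 4 (0.21). The interval call was lost in 6 of the 10 settings that leave out 1 array (GD9.0 replicate 1, 2 or 4 and GD9.5 replicate 1, 3 or 4, from 0.16 to 0.19) and with 12 arrays (0.19). Kif3b, the other motor subunit of kinesin-II, had 4 probe sets between -0.25 and -0.04 over the day, and Kif7, a kinesin that organises the cilium tip for Gli proteins, stood at -0.06. Neither was called through its brightest probe set, while another probe set of Kif3b was called lower in the second interval (-0.34) where the brightest stood at 0.23.

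**Figure D4:**
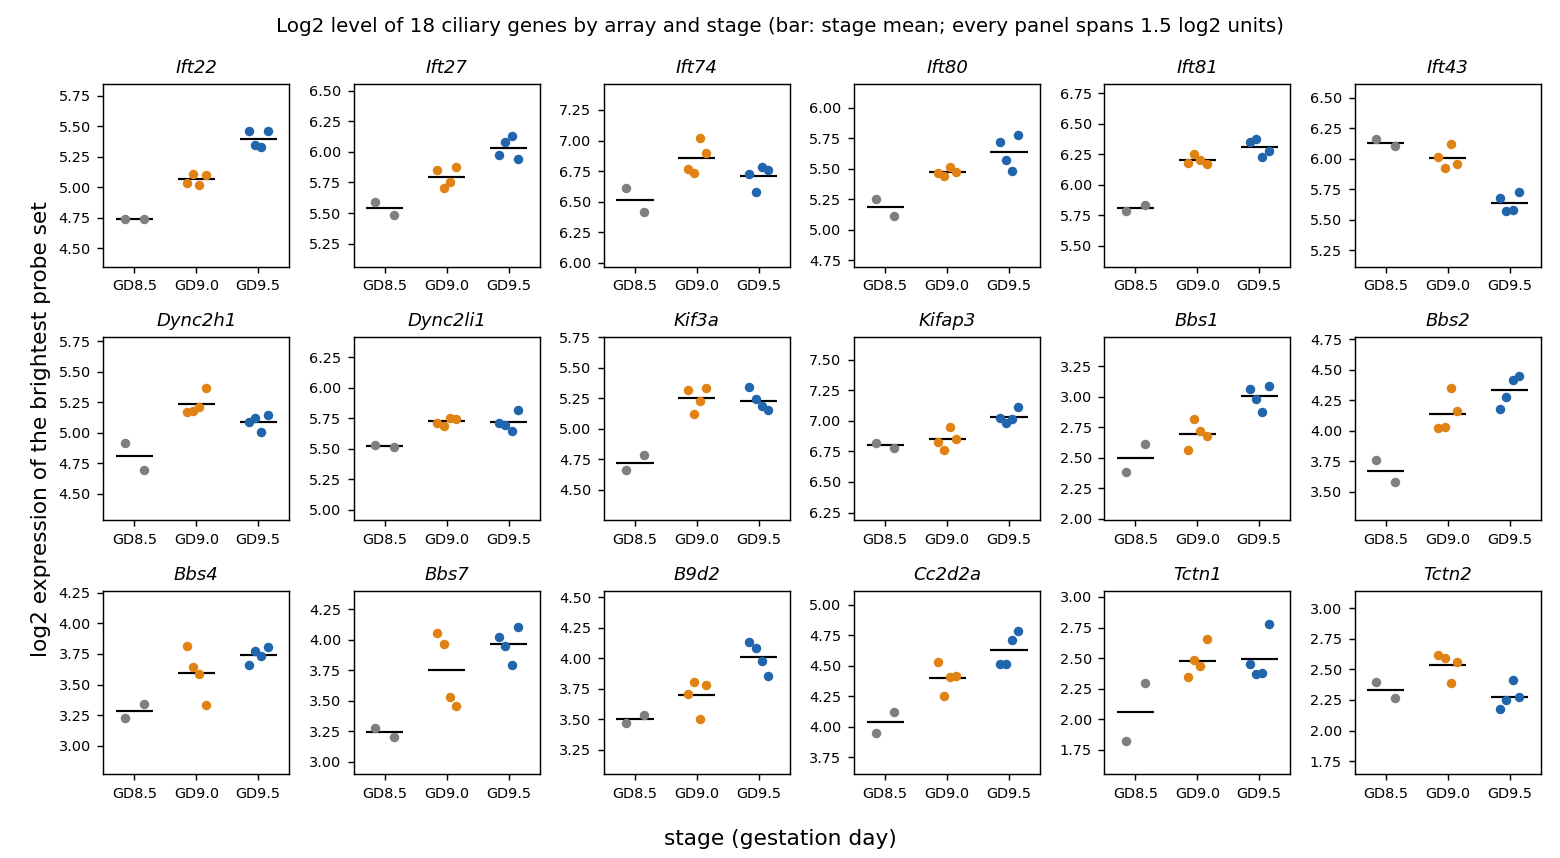
Log2 level of the brightest probe set on each array (points) at GD8.5 (n = 2), GD9.0 (n = 4) and GD9.5 (n = 4), with the stage mean (bar), for the 18 ciliary genes called in at least 1 comparison of stages. Kif3a and Dync2h1 step up at GD9.0, Ift22 is higher at each later stage, and Ift43 and Tctn2 are lower at GD9.5 than at GD9.0.

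Among the 8 Bbs genes 4 rose over the day, 0 fell and 4 did not pass, with a median log2 change of 0.35. Over all genes 15.5% were called higher, and 21.4% of those above the background. Bbs7, Bbs2, Bbs1 and Bbs4, the 4 that rose, encode BBSome subunits. Bbs7 had levels of 3.28 and 3.20 at GD8.5, 4.06, 3.97, 3.53 and 3.46 at GD9.0, and 4.02, 3.95, 3.80 and 4.10 at GD9.5. GD8.5 lay below all later arrays, and the GD9.0 arrays were widely spread. It rose by 0.72 ± 0.16 over the day (adjusted p = 0.0053), and the mean of its 2 probe sets gave 0.42, also called. Its other probe set had a mean level of 1.14, under the background. Bbs2, which sits with Bbs7 in the core of the coat, had 3.76 and 3.58 at GD8.5, 4.02, 4.03, 4.35 and 4.16 at GD9.0, and 4.18, 4.27, 4.42 and 4.45 at GD9.5. Its GD8.5 arrays were the lowest. It rose by 0.66 ± 0.11 over the day and by 0.47 ± 0.11 in the first interval (adjusted p = 0.00087 and 0.016), the call in the first interval being lost without GD8.5 replicate 4 (0.38).

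Bbs1, which contacts cargo and Arl6, had levels of 2.39 and 2.61 at GD8.5, 2.56, 2.81, 2.72 and 2.68 at GD9.0, and 3.06, 2.98, 2.88 and 3.09 at GD9.5. All GD9.5 arrays were higher than all others. It rose by 0.50 ± 0.09 over the day and by 0.31 ± 0.08 in the second interval (adjusted p = 0.0017 and 0.011). With 12 arrays these were 0.33, still called, and 0.28, not called. Bbs4, which joins the coat to the pericentriolar protein Pcm1, had 3.22 and 3.34 at GD8.5, 3.81, 3.64, 3.59 and 3.33 at GD9.0, and 3.66, 3.78, 3.73 and 3.81 at GD9.5. GD9.5 lay above GD8.5, and GD9.0 overlapped both. Its rise over the day (0.46 ± 0.11, adjusted p = 0.0089) was lost without GD8.5 replicate 3 (0.40), with the replicate block (0.40) and with 12 arrays (0.23).

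Bbs5 and Bbs9, also of the BBSome, stood at -0.18 and 0.19 over the day and were not called. Bbs10 and Bbs12, chaperonin-like proteins that help assemble the BBSome and are not part of it, stood at 0.17 and 0.25. Bbs12 ranged from 3.72 to 4.38 on the GD9.0 arrays.

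The transition zone holds the tectonic and B9 proteins of a complex that limits entry into the cilium. Of its 8 genes 3 rose over the day, 0 fell and 5 did not pass. That is 37.5% higher, where 15.5% of all genes were called higher and 21.4% of those above the background. Cc2d2a, a C2-domain protein of this complex, had levels of 3.95 and 4.13 at GD8.5, 4.53, 4.25, 4.41 and 4.41 at GD9.0, and 4.51, 4.51, 4.71 and 4.78 at GD9.5, and GD8.5 was below every later array. It rose by 0.59 ± 0.10 over the day and by 0.36 ± 0.10 in the first interval (adjusted p = 0.0011 and 0.038). The interval call was lost without GD8.5 replicate 3 (0.28), GD8.5 replicate 4 (0.45), or GD9.0 replicate 1 (0.32), 3 (0.36) or 4 (0.36), and with 12 arrays (0.71).

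B9d2, a B9-domain protein, had levels of 3.47 and 3.53 at GD8.5, 3.71, 3.80, 3.50 and 3.78 at GD9.0, and 4.13, 4.09, 3.97 and 3.86 at GD9.5. GD9.5 lay above all other arrays. It rose by 0.51 ± 0.10 over the day and by 0.32 ± 0.08 in the second interval (adjusted p = 0.0024 and 0.015), the interval call being lost with quantile normalization repeated (0.27) and with 12 arrays (0.26). With 12 arrays the change over the day was 0.97, also called. Its relative B9d1 stood at 0.08 over the day, with means of 5.96 at GD9.5 and 5.89 at GD8.5.

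The 3 tectonics differed. Tctn1 had 1.82 and 2.30 at GD8.5, 2.34, 2.48, 2.44 and 2.65 at GD9.0, and 2.45, 2.37, 2.37 and 2.78 at GD9.5, with the GD8.5 arrays far apart and below the rest. Its rise over the day (0.43 ± 0.15, adjusted p = 0.047) was lost in 7 of the 10 settings that leave out 1 array, with 0.20 without GD8.5 replicate 3, 0.34 without GD9.5 replicate 4, 0.45 and 0.47 without GD9.5 replicates 1 and 2, and 0.43 without GD9.0 replicate 1, 2 or 3. It was 0.67 without GD8.5 replicate 4 and 0.85 with 12 arrays, both called. Tctn2 had 2.40 and 2.27 at GD8.5, 2.61, 2.59, 2.39 and 2.56 at GD9.0, and 2.18, 2.25, 2.41 and 2.27 at GD9.5, and 1 array of GD9.5 overlapped GD9.0. It fell in the second interval (-0.26 ± 0.07, adjusted p = 0.018) and stood at -0.06 over the day. That call was lost without GD9.0 replicate 1 (-0.24) or GD9.5 replicate 1 (-0.23), with an intensity trend and robust spread, with the replicate block and with 12 arrays (-0.26 each). Tctn3 stood at 0.11 over the day and was not called in any comparison.

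Mks1, of the same complex, stood at 0.20 over the day, and Tmem67, a receptor-like membrane protein of the zone, at -0.03 near the background. Ofd1, which sits at the distal end of the centriole and is X-linked, stood at 0.25 ± 0.10 (adjusted p = 0.083). In all, 18 of the 37 members were called in at least 1 comparison of stages and 19 in none. Over all genes 13.5% were called in either direction in the first interval, 24.3% in the second and 28.6% over the day. The share of all genes called in at least 1 of these was not counted, so the 18 have no such share beside them.

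Other genes of the pathway were counted from lists chosen by function. Over the day 43 of 140 of them rose and 12 fell, or 30.7% and 8.57%, with a median of 0.11. The shares over all genes are the 15.5% higher and 13.1% lower given above (21.4% and 16.6% above the background). Among 19 partners of IFT and of the motors 6 rose and 2 fell. Wdr35, the IFT-A subunit also called Ift121, rose by 0.93 ± 0.10 and Traf3ip1, the IFT-B subunit also called Ift54, by 0.70 ± 0.19, while Hspb11, or Ift25, changed by -0.37 ± 0.12 and the ciliary kinesin Kif17 by -0.35 ± 0.10 (SE). Hspb11 forms a pair with Ift27 in the train, and these 2 were called in opposite directions, as were Wdr35 and Ift43 in IFT-A. Hspb11 and Wdr35 each have 2 probe sets, of which only the brightest is given here. Calls of genes in these lists were not followed through the alternatives used for the members.

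Of 7 BBS partners 3 rose and 0 fell, with the BBSome subunits Ttc8 (0.60 ± 0.08) and Bbip1 (0.57 ± 0.07) the largest. Of 16 transition zone partners 5 rose and 0 fell, led by Ahi1, a Joubert syndrome protein (0.87 ± 0.11), and Rpgr (0.64 ± 0.08). Of 22 basal body and appendage genes 8 rose and 2 fell. Poc1b (0.87 ± 0.09) and Cep41 (0.79 ± 0.09) rose most, and Odf2, an appendage protein, fell (-0.36 ± 0.08), as did Dzip1l (-0.32 ± 0.08). In the second interval Odf2 changed by -0.62 ± 0.07.

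Of 22 genes of ciliary membrane traffic 8 rose and 1 fell, with Arl2bp, which binds Arl2 and Arl3, at 0.70 ± 0.07, the prenyl-binding Pde6d at 0.63 ± 0.08 and Rab34, which acts at the ciliary vesicle, at -0.20 ± 0.07. Of 9 genes that promote cilium disassembly 3 rose and 2 fell. Kif24 (0.60 ± 0.06) and Kif2a (0.48 ± 0.06), both microtubule-depolymerising kinesins, rose, and the deacetylase Hdac6 (-0.32 ± 0.07) and the kinase Aurka (-0.24 ± 0.06) fell.

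Hedgehog genes moved both ways, with 6 of 17 higher and 3 lower over the day, the 17.6% lower being near the share over all genes. The coreceptors Boc (1.12 ± 0.10) and Cdon (0.98 ± 0.06) rose and Ptch1, the receptor and a target of the pathway, fell (-0.68 ± 0.06, adjusted p = 4.4e-06). Ptch1 averaged 7.57 at GD9.5 and 8.25 at GD8.5, and it changed by -0.67 ± 0.06 in the first interval and -0.01 in the second. Among other targets, Gli1 stood at 0.34 over the day, not called, and was called higher in the second interval (0.45 ± 0.13, adjusted p = 0.028), and Hhip stood at -0.01 over the day.

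Of 22 genes of motile cilia 1 rose and 2 fell over the day, a share of 4.55% higher, and in the first interval 0 were called by limma, with 1 at an unadjusted p under 0.05. Of these 22 genes 9 lay under the background of 1.43 at every stage, against 0 of the 37 members, so the share of this list cannot be set against the others. Foxj1, the master regulator of motile cilia and one of the 9, had stage means of 1.32, 1.17 and 1.32. Of 6 RFX factors 3 rose over the day. Rfx4, a factor of the neural tube, rose by 1.63 ± 0.06 (adjusted p = 7.4e-09), with means of 7.46 at GD9.5 and 5.83 at GD8.5, and Rfx3 and Rfx7 rose by 0.48 ± 0.07 and 0.48 ± 0.06. Rfx2 stood at 0.18 and was not called.

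**Figure D5:**
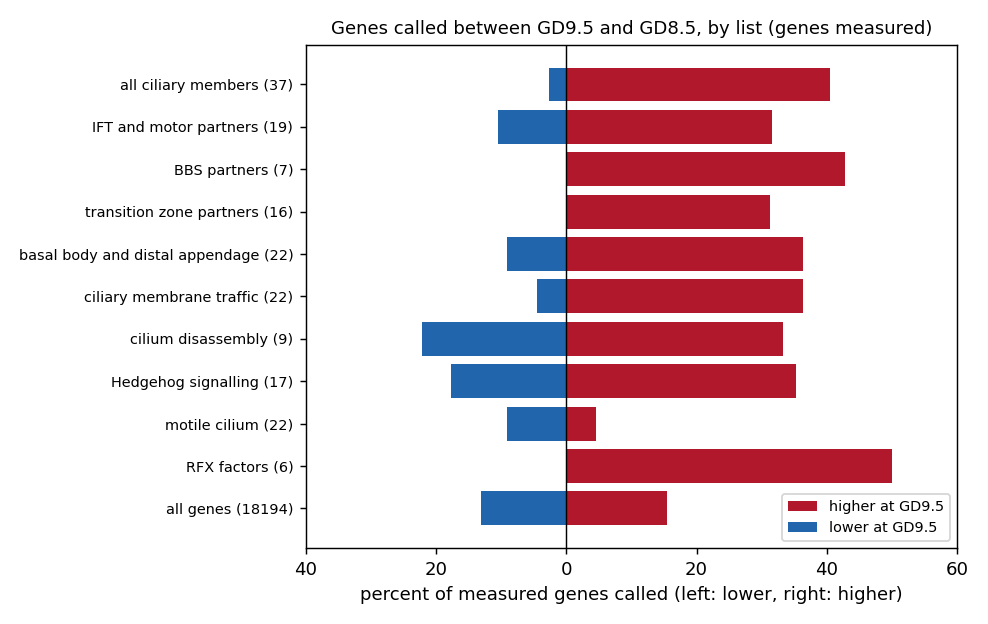
Percent of measured genes called higher (red, right) or lower (blue, left) at GD9.5 than at GD8.5 for the 37 ciliary genes, 9 lists of other ciliary and Hedgehog genes and all 18194 genes, with the number measured in brackets. The ciliary genes have 40.5% higher and 2.70% lower, motile cilium genes, of which 9 of 22 lay under the background at every stage, 4.55% higher, and all genes 15.5% higher and 13.1% lower.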

How the data were processed

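The members and gene lists were chosen with earlier results of these data known. Per the labels' protocols, 100 ng of total RNA per sample was labelled with biotin. RMA, GCRMA and Affymetrix Expression Console (1.2.1) are listed in the submitters' processing notes, and no step is assigned to any of them. The deposited values of 10 arrays were log2 expression, as the values show; the authors' normalization of each column was not stated. Those deposited for GD8.5 replicates 1 and 2 were intensity on a linear scale and entered an alternative only.

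Probe sets were named through the platform annotation: 34958 of 45101 named 1 gene. Each of 18194 genes was represented by its brightest such probe set over the 10 arrays. limma 3.58.1 in R 4.3.3 fitted a mean per stage (7 residual and 3.86 prior degrees of freedom), with Benjamini-Hochberg adjustment over all genes and calls under 0.05. Contrasts were the first interval (GD9.0 minus GD8.5), the second (GD9.5 minus GD9.0), the day (GD9.5 minus GD8.5) and second minus first interval, and errors beside changes are standard errors. Members called in at least 1 contrast were named with array values, the others by value or range, and up to 2 rises and 2 falls per further list. No labels pair equal replicate numbers, and deviations of same-numbered arrays correlated between -0.06 and 0.12, so no block was used. No batch is given in the labels. In simulated data over 18194 genes, 200 genes above the background were changed, where the real comparison over the day called 5210. Recovery with more changed genes was not tested. On these simulated data the fit recovered 76.1% of changed genes at a true 1.5-fold change and 16.4% at 1.2-fold for GD9.5 against GD8.5. For GD9.0 against GD8.5 it recovered 77.6% and 16.4%, and for GD9.5 against GD9.0 86.6% and 28.4%. Alternatives were other scalings, filters, probe set choices, variance models, array weights, a replicate block, 12 arrays and leaving out each array. The background level was also chosen with the data known. Promoter windows came from RefSeq, GRCm38.p6. The number of arrays limits the precision, and no sequence of a protein was used here.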

Additional observations from a re-analysis of the deposited data

Results flagged for a closer look

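In 4 of 74 sets of 4 arrays, 1 array of a ciliary gene stood far from the other 3 of its stage, past Dixon's critical value for 4 arrays, which chance passes in about 1 in 20 sets. GD9.5 replicate 2 was the array in 3 of them. It was the highest of its stage for Ift172 at 4.05, where the next was 3.79, and for Kif3b at 3.77, where the next was 3.53. It was the lowest for Bbs12 at 4.22, where the next was 4.56. The 4th was Ift140, with GD9.0 replicate 4 the lowest of its stage at 4.55, below 4.69. None of these 4 genes was called in a comparison of stages.

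The change of 3 members differed between the intervals by limma's test of the second minus the first: Dync2h1 at -0.57, Kif3a at -0.55 and Tctn2 at -0.47 on the log2 scale. That is 8.11% of the members, where 11.6% of all genes were called in either direction. Dync2h1 and Kif3a rose in the first interval and stood at -0.14 and -0.02 in the second, and Tctn2 stood at 0.21 in the first and fell in the second. The GD9.0 arrays enter both intervals. The Tctn2 call was lost in 11 of 19 alternatives.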

How the results depend on the processing

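Of 34 calls of single members, 15 were kept under all 19 alternatives, 19 were lost in at least 1, and 0 changed sign. Kept over the day were Ift22, Ift27, Ift80, Ift81, Ift43, Kif3a, Bbs1, Bbs2, Bbs7, B9d2 and Cc2d2a. Leaving out 1 array gave 3 to 9 called members for GD9.0 against GD8.5, 5 to 8 for GD9.5 against GD9.0, 12 to 16 for GD9.5 against GD8.5 and 1 to 3 for the second interval minus the first. With 1 array left at GD8.5, that array is assumed to vary like the other stages. With 12 arrays the second interval had 2 called members. The difference between intervals had 5 called members among genes above the background, where fewer genes are tested, and 5 with the mean of probe sets, against 3. It had 1 without GD8.5 replicate 4 or GD9.0 replicate 4. The cause of the changes under 12 arrays and the mean of probe sets was not tested. With the replicate block, 8, 6, 14 and 3 members were called in the 4 contrasts, beside 8, 7, 16 and 3 without it; the numbers are not known to pair the samples. The other alternatives that kept all arrays left each count of calls within 1.5 times. With 2 arrays at GD8.5, comparisons with that stage have the least precision.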
